A study of Mus musculus with 6 samples.

Results

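The genes described here are 9 markers of the mesothelium, the flat epithelial sheet that covers the pancreas and the other organs of the body cavity. They were chosen by name (*Wt1*, *Msln*, *Upk3b*, *Upk1b*, *Lrrn4*, *Gpm6a*, *Muc16*, *Rspo1* and *Nkain4*) and matched to the identifiers of the count table. Of the 37224 genes in the count table, 8 rows belong to these 9 genes, because *Muc16* has no row under its present identifier. All 8 passed the filter on low counts that 15578 genes passed. The samples were whole pancreata of wild-type (wt) C57/Bl6J mouse embryos at 13.5 and 15.5 days post coitum (dpc), with 3 samples per stage. No treatment and no mutant allele was part of these groups. Each sample pooled the organs of up to 3 embryos, so that it held epithelium, mesenchyme, mesothelium and any attached tissue together.

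The mesothelium arises from the lining of the embryonic body cavity, and in several organs mesothelial cells leave the surface and contribute fibroblasts and smooth muscle. *Wt1* encodes a zinc finger transcription factor that is a classical marker of this sheet and is also made in podocytes and gonads. *Msln* encodes mesothelin, a surface glycoprotein tethered by a lipid anchor, and *Muc16* encodes the large membrane mucin that binds mesothelin. *Upk3b* and *Upk1b* encode uroplakins, membrane proteins best known from the bladder lining. *Rspo1* encodes a secreted R-spondin, which strengthens Wnt signalling through LGR receptors. *Lrrn4* and *Gpm6a* encode membrane proteins first studied in neurons, and *Nkain4* encodes a small membrane protein that interacts with the sodium pump. In RNA of a whole organ, fewer cells of a type and less RNA per cell cannot be told apart.

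Between 10546028 and 16389237 reads were counted on genes in each sample. Transcripts of all 8 members with a row were found in every sample, beside the acinar genes *Ctrb1* and *Pnliprp1*, which alone exceeded 1% of the counts of any sample. All pairs of samples of the same stage differed by more than sampling noise, from a chi-square statistic per gene of 1.61 for 13.5 dpc replicates 1 and 2 to 63.2 for 15.5 dpc replicates 1 and 2. In that last pair the log2 difference ran with exon length across genes, with a Spearman rho of -0.589 over 15578 genes, which are not independent replicates. Trends of this kind were also found between other samples, with a rho of -0.49 for 15.5 dpc replicates 1 and 3, 0.525 for replicates 2 and 3, and -0.325 and -0.312 for 13.5 dpc replicates 1 and 2 against replicate 3. Nothing in the labels says that the samples of a stage came from separate litters, so that p-values measure the spread between these samples.

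Promoter sequences of the RefSeq annotation (mouse assembly GRCm38.p6) matched 5 of the 9 symbols, *Lrrn4*, *Upk3b*, *Rspo1*, *Gpm6a* and *Muc16*, with 6 windows in all because *Gpm6a* has 2 start sites. *Wt1*, *Msln*, *Upk1b* and *Nkain4* had no entry. The 250 bases before the start site of 3 members are shown, chosen because the bases that follow these windows were also found in a GENCODE transcript of the same gene. The *Lrrn4* window overlaps the first bases of the gene as counted. Capitals mark GGAATG or its reverse complement, the core recognised by TEAD factors, the DNA-binding partners of YAP.

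Upk3b, chr5:136038246-136038495, + strand: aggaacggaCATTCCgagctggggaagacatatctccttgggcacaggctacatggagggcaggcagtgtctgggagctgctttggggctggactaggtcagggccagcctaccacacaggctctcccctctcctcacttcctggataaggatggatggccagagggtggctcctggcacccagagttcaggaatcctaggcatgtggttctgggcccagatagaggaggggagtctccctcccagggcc

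Lrrn4, chr2:132880863-132881112, - strand: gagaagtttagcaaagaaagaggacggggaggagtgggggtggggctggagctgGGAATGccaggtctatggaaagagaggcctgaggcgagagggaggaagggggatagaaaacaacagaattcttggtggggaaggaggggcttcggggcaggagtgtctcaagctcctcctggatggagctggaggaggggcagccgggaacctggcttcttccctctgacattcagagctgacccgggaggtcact

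Rspo1, chr4:124986180-124986429, + strand: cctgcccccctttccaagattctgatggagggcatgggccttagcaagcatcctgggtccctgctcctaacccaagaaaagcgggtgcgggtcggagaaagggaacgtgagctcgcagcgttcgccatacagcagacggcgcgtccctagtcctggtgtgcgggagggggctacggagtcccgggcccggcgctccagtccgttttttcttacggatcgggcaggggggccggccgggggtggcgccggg

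The motif lay once in the *Lrrn4* window, 190 bases before the start, and once on the other strand of the *Upk3b* window, 235 bases before it. The *Rspo1* window held none. Searched on both strands, the motif was present in 3 of the 6 member windows and in 12.6% of 32851 windows of the same length. The letters GCGTGGG, a site type bound by WT1, were in 0 of the 6 member windows and in 4.30% of all windows, and GCGGGGGCG, a site type shared by EGR factors and WT1, was in 0 of 6 and in 2.57%. The TATA letters TATAAA were in 1 of 6, a *Gpm6a* window, and in 12.4% of all windows. These matches describe letters and show no binding.

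The question put to the counts was how the mesothelial genes stood relative to each other and whether they moved between 13.5 and 15.5 dpc. *Wt1* transcripts fell and *Msln* transcripts rose between the stages, whereas the other 6 members did not pass the test. On the scale of normalised counts (counts scaled to a common effective library size), the mean of *Wt1* went from 692 ± 63.7 to 411 ± 22.5 and that of *Msln* from 10.6 ± 1.45 to 43.8 ± 16.3 (SD, n = 3 samples per stage). *Upk3b*, the most abundant member per length, stood at 856 ± 9.38 and 849 ± 54.1 normalised counts. Across all genes tested, 22.3% differed at an adjusted p at or below 0.05 (edgeR quasi-likelihood test, Benjamini-Hochberg), 10.7% lower and 11.6% higher at 15.5 dpc. Against this background, 1 of 8 members was lower and 1 of 8 was higher. The median log2 fold change of the 8 members was -0.19, with 6 of 8 below 0, and that of all genes tested was -0.01. The members' median was -0.07 without 15.5 dpc replicate 1, -0.05 scaled to mesenchyme and -0.39 with library size only.

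**Figure D1:**
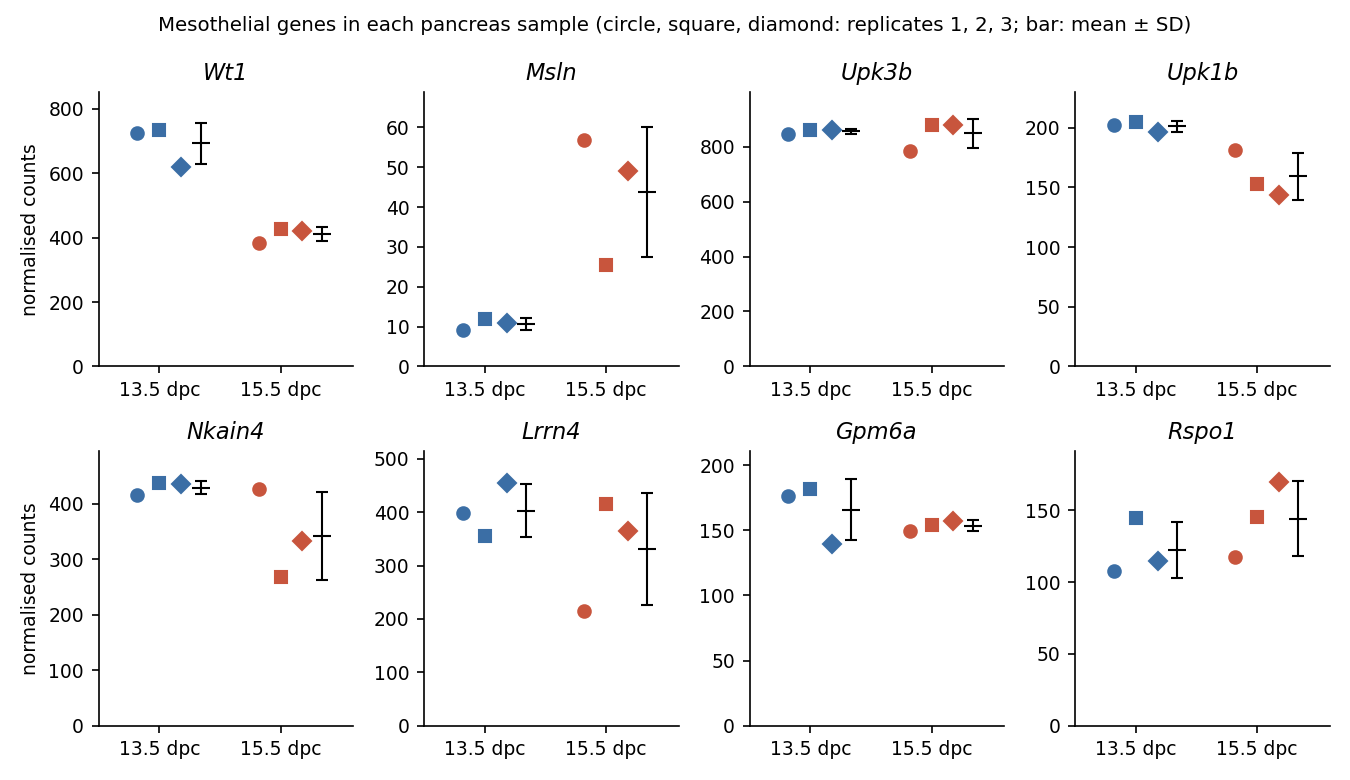
Normalised counts of the 8 mesothelial genes with a row in the table, 1 panel per gene with its own linear axis from 0; blue points are 13.5 dpc and red points 15.5 dpc samples, with circles, squares and diamonds for replicates 1, 2 and 3, and the bar gives mean ± SD (n = 3). The *Wt1* points of 15.5 dpc, 385 to 425, all lie below those of 13.5 dpc, 619 to 734, the *Msln* points of 15.5 dpc all lie above, and the *Upk3b* points of the stages overlap.

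*Wt1* (ENSMUSG00000016458) lies at chr2:105126529-105173616 of mm10, on the + strand, with 10 exons and 6195 exon bases. Its normalised counts were 724, 734 and 619 in 13.5 dpc replicates 1, 2 and 3 and 385, 425 and 422 in those of 15.5 dpc, so that the highest value at 15.5 dpc lay well below the lowest at 13.5 dpc. The log2 fold change was -0.75 with a standard error (SE) of 0.11 and a 95% interval from -1.0 to -0.50 (adjusted p = 0.00389, edgeR), or 0.594 times the earlier level. The study's rule for a changed gene combines an adjusted p of 0.1 with a fold below 0.6 or above 1.6 and a level of over 100 normalised counts. *Wt1* fell just inside it as the only member, where 3.58% of all genes were lower by the rule. The fold lay at or above 0.6 under some alternatives, such as 0.60 with the size factors of DESeq2 in edgeR, 0.668 with the length trend removed and 0.613 without 15.5 dpc replicate 1. The test itself called *Wt1* lower in all 16 alternatives tried, with log2 fold changes of -0.96 to -0.58 and adjusted p-values of 1.28e-06 to 0.0447.

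A gene on the opposite strand, *Wt1os*, starts immediately beside *Wt1* (chr2:105076538-105126510, - strand) and was examined after its values were seen. Its normalised counts fell from 70.8 ± 12.9 to 31.9 ± 4.76 (log2 fold change -1.14, SE 0.21, adjusted p = 0.0103, edgeR). The genes share no exon bases. The call for *Wt1os* was lost without 15.5 dpc replicate 3 (adjusted p = 0.0517).

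*Msln* (ENSMUSG00000063011) lies at chr17:25748614-25754327, on the - strand, with 16 exons and 2114 exon bases. It was the scarcest member, with raw counts of 10, 14 and 15 at 13.5 dpc and 41, 25 and 39 at 15.5 dpc. The exact Poisson 95% intervals, which cover counting error only, reached up to 24.7 counts at 13.5 dpc (replicate 3) and down to 16.2 at 15.5 dpc (replicate 2). Scaled for depth, the values were 9.11, 12 and 10.8 against 56.7, 25.6 and 49.1 normalised counts, and even the lowest sample of 15.5 dpc exceeded every sample of 13.5 dpc. The log2 fold change was 2.00 (SE 0.35, 95% interval 1.18 to 2.82, adjusted p = 0.00809, edgeR), a 4.0-fold higher level. *Msln* did not meet the study's rule because it stayed under 100 normalised counts. It was called higher in all 16 alternatives, at log2 fold changes of 1.77 to 2.31 and adjusted p-values of 4.88e-05 to 0.0457. Of its 50-base windows, 2.88% also occurred in transcripts of other genes, whereas for the other members with a row this share was 0%.

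The mucin partner of mesothelin could be followed only in part. *Muc16*, on chr9:18495455-18674530 (- strand), has 26350 exon bases, and the table holds an older gene model within it (ENSMUSG00000032134, chr9:18495455-18512885), whose 1035 exon bases all lie inside *Muc16* exons and make up 3.93% of them. This model was found by its coordinates and is not counted among the members. It had raw counts of 24, 28 and 38 at 13.5 dpc and 9, 13 and 8 at 15.5 dpc, and the stages did not overlap after scaling (24.4 ± 2.73 against 11.9 ± 1.67 normalised counts). The log2 fold change was -1.02 (SE 0.24, adjusted p = 0.0219, edgeR). The call held in 8 of 15 alternatives and was lost, for instance, with DESeq2 (adjusted p = 0.0589) and without any single 13.5 dpc replicate (adjusted p = 0.0678, 0.0794 and 0.0937 without replicates 1, 2 and 3).

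Neither uroplakin member passed the threshold. *Upk3b* (ENSMUSG00000042985, chr5:136038496-136045303, + strand, 6 exons, 2346 exon bases) had 846, 862 and 862 normalised counts at 13.5 dpc and 786, 879 and 880 at 15.5 dpc. Its log2 fold change was -0.01 (SE 0.09, adjusted p = 0.928, edgeR), and the 95% interval of -0.22 to 0.20 is the narrowest among the members. *Upk1b*, which encodes a tetraspanin that pairs with uroplakin 3 proteins (ENSMUSG00000049436, chr16:38773184-38800203, - strand, 8 exons, 1769 exon bases), had 202, 205 and 196 against 181, 152 and 144 normalised counts. All 15.5 dpc samples of *Upk1b* lay below those of 13.5 dpc, but the difference missed the threshold after adjustment (log2 fold change -0.34, SE 0.13, adjusted p = 0.0918, edgeR). Without 15.5 dpc replicate 1 it passed (log2 fold change -0.44, adjusted p = 0.0219), as it did with the length trend removed (-0.50, adjusted p = 0.00798) and with library size only (-0.56, adjusted p = 0.0144). These fits called 4266, 5104 and 4085 genes over all genes, against 3467 in the first analysis.

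Of the 8 members, the stages did not overlap for *Wt1* and *Upk1b*, lower at 15.5 dpc, and for *Msln*, higher. Over all genes tested, 23.6% were lower without overlap and 22.8% higher without overlap.

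*Nkain4* (ENSMUSG00000027574, chr2:180934772-180954699, - strand, 9 exons, 1239 exon bases) had 416, 437 and 435 normalised counts at 13.5 dpc and 426, 268 and 332 at 15.5 dpc. Replicate 1 of 15.5 dpc stood at the earlier level and the other samples of that stage below it. The log2 fold change was -0.33 (SE 0.17, 95% interval -0.72 to 0.06, adjusted p = 0.180, edgeR). It became -0.52 (adjusted p = 0.00929) without 15.5 dpc replicate 1, -0.59 (adjusted p = 0.00152) with the length trend removed and -0.56 (adjusted p = 0.0230) with library size only. It was smaller without 15.5 dpc replicate 2 (-0.17, adjusted p = 0.286) and scaled to mesenchyme (-0.14, adjusted p = 0.733). The fits in which *Nkain4* passed called 4266, 5104 and 4085 genes over all genes, in the same order, against 3467 in the first analysis. A gene on the other strand, *Gm14341*, overlaps 55 of its exon bases and had at most 2 counts in any sample.

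*Lrrn4* (ENSMUSG00000043110, chr2:132868305-132880891, - strand, 5 exons, 3715 exon bases) showed the opposite imbalance. It had 398, 356 and 455 normalised counts at 13.5 dpc, against 215, 415 and 364 at 15.5 dpc, so that 15.5 dpc replicate 1 was the lowest of the 6 samples. The log2 fold change of -0.28 (SE 0.23, 95% interval -0.82 to 0.27, adjusted p = 0.398, edgeR) shrank to -0.05 without that sample and became -0.46 without 15.5 dpc replicate 2 (adjusted p = 0.0986). Between 15.5 dpc replicates 1 and 2, *Lrrn4* was lower by -0.95 and the shorter *Nkain4* higher by 0.67 on the log2 scale in replicate 1, beside the trend with exon length of that pair. The part of the trend in either value was not tested beyond the fit with the trend removed.

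*Gpm6a* (ENSMUSG00000031517, chr8:54954728-55060877, + strand, 7 exons, 3336 exon bases) had 177, 182 and 139 normalised counts against 149, 154 and 157. Its 15.5 dpc values all fell within the spread of the earlier stage (log2 fold change -0.11, SE 0.14, 95% interval -0.44 to 0.22, adjusted p = 0.594, edgeR). *Rspo1* (ENSMUSG00000028871, chr4:124986430-125009099, + strand, 6 exons, 1938 exon bases) had 108, 145 and 115 against 118, 145 and 170 normalised counts. It was the only member besides *Msln* with a fold change above 0 (log2 fold change 0.24, SE 0.18, 95% interval -0.19 to 0.67, adjusted p = 0.362, edgeR), and its stages overlapped.

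**Figure D2:**
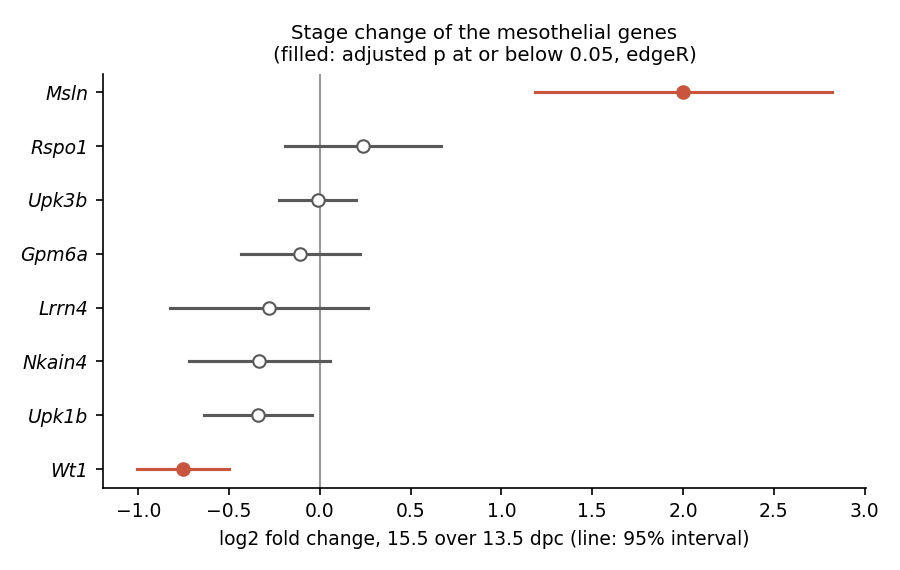
Log2 fold change of each member, 15.5 over 13.5 dpc (x axis), with its 95% interval before adjustment for the number of genes; filled points have an adjusted p at or below 0.05. *Msln* at 2.00 and *Wt1* at -0.75 stand apart from 6 open points between -0.34 and 0.24.

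To compare levels between genes, counts were divided by exon length and effective depth (RPKM, a read density per kilobase of exon at a fixed depth). At 13.5 dpc the order was *Upk3b* with 28.9 ± 0.316 RPKM, *Nkain4* with 27.4 ± 0.735, *Upk1b* with 9.0 ± 0.203, *Wt1* with 8.85 ± 0.813, *Lrrn4* with 8.59 ± 1.07, *Rspo1* with 5.0 ± 0.808, *Gpm6a* with 3.94 ± 0.550 and *Msln* with 0.398 ± 0.0543 (SD, n = 3). The ranges of *Upk1b*, *Wt1* and *Lrrn4* overlapped from neighbour to neighbour, and all other neighbours in the order were separate. *Upk3b* was above 84.5% of the genes tested, whereas *Msln* was above 4.66%. At 15.5 dpc *Upk3b* (28.6 ± 1.83 RPKM), *Nkain4* (21.9 ± 5.09), *Upk1b* (7.12 ± 0.883) and *Lrrn4* (7.05 ± 2.22) again came before *Gpm6a* (3.65 ± 0.0951) and *Msln* (1.64 ± 0.608). *Rspo1*, at 5.89 ± 1.07 RPKM, now stood above *Wt1*, at 5.25 ± 0.288. These 2 did not differ beyond their ranges, nor did *Lrrn4* and *Rspo1*, *Upk1b* and *Lrrn4*, or *Upk3b* and *Nkain4*. *Msln* had moved up to above 20.1% of the genes tested.

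Because the ratio of members in the same sample needs no scaling for depth between libraries, *Wt1* and *Msln* were also set against *Upk3b*. The ratio keeps any trend with exon length, and *Wt1* has 6195 exon bases against 2346 of *Upk3b*. With the length trend removed, the log2 fold changes were -0.58 for *Wt1* and -0.09 for *Upk3b*, against -0.75 and -0.01 before. Per length, *Wt1* amounted to 32.4%, 32.3% and 27.2% of *Upk3b* at 13.5 dpc and to 18.5%, 18.3% and 18.1% at 15.5 dpc. The spread at 15.5 dpc was small, and no sample crossed over. *Msln* amounted to 1.20%, 1.55% and 1.39% of *Upk3b* and then to 8.01%, 3.23% and 6.19%. *Msln* as a share of *Wt1*, again per length, went from 4.53% ± 0.743 to 31.6% ± 13 (SD, n = 3). These genes were set side by side with their changes known, so that the ratios are a description without a test.

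Summed over the 8 genes, the level was 2880, 2932 and 2833 normalised counts at 13.5 dpc, against 2317, 2466 and 2518 at 15.5 dpc, a ratio of the means of 0.844. *Wt1* held 24.0% of this sum at 13.5 dpc and 16.9% at 15.5 dpc, *Upk3b* 29.7% and 34.9%, and *Msln* 0.369% and 1.81%. Without *Wt1* and *Msln* the remaining 6 members summed to 2179 ± 28.9 and 1979 ± 91.4. The log2 ratio of the whole sum, -0.24, became -0.45 when only library size was used, a scaling that put the median over all genes at -0.22.

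Over the 6 samples, the log2 levels of the members did not run together as a block. Of 28 pairs, 16 had a Pearson correlation above 0, and the median was 0.07. The highest were *Upk3b* with *Lrrn4* (0.864), *Upk1b* with *Nkain4* (0.852) and *Wt1* with *Upk1b* (0.796), and the lowest was *Wt1* with *Msln* (-0.937). These correlations describe 6 samples that fall into 2 stages and share the length trend.

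**Figure D3:**
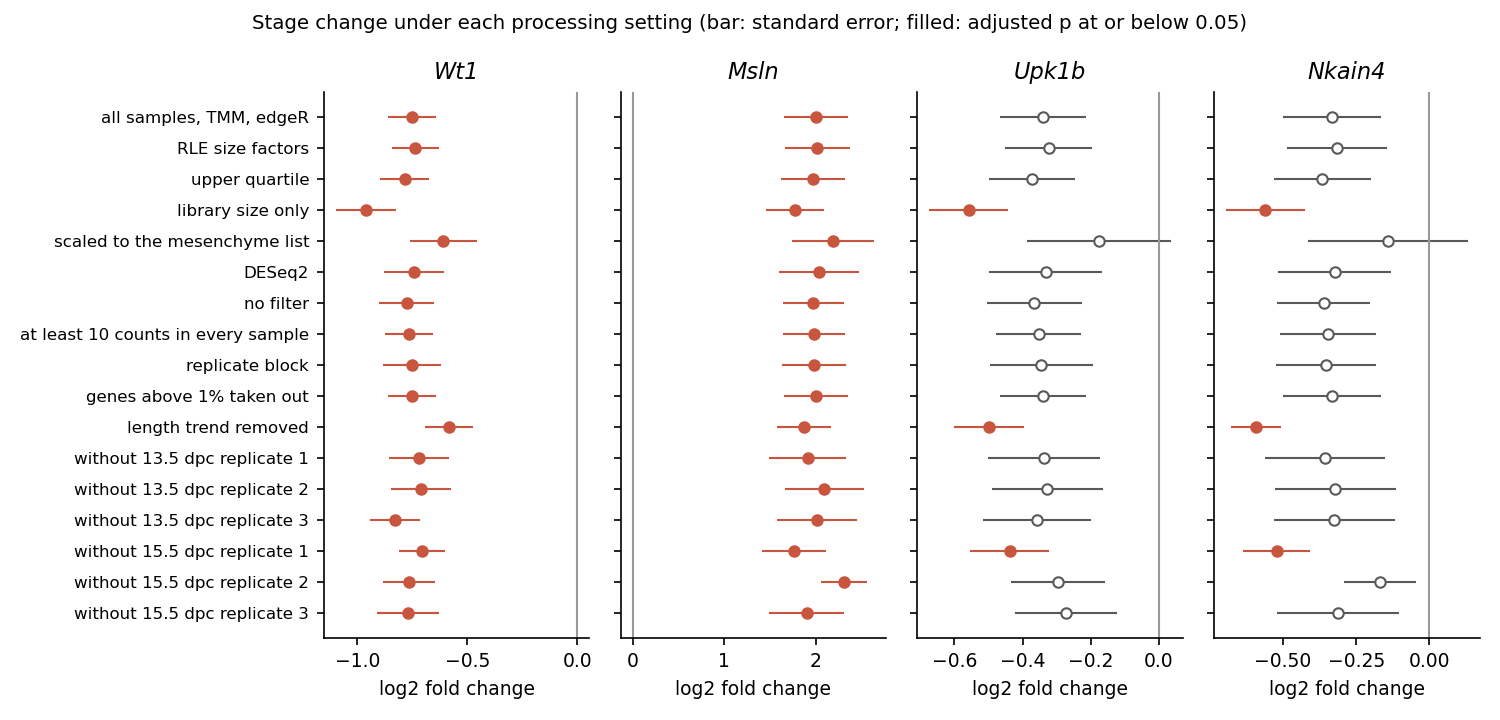
Log2 fold change (x axis, 15.5 over 13.5 dpc) of *Wt1*, *Msln*, *Upk1b* and *Nkain4* under the first analysis (top row) and 16 alternatives, with bars of 1 standard error and filled points where the adjusted p was at or below 0.05. *Wt1* and *Msln* are filled throughout, and *Upk1b* and *Nkain4* are filled in 3 settings each, with library size only, with the length trend removed and without 15.5 dpc replicate 1. These 3 settings called 4085, 5104 and 4266 genes over all genes, against 3467 in the first analysis.

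A wider list of genes known from mesothelium was read beside the members. Of 16 listed, 13 were tested, 4 were lower and 0 higher, with a median log2 fold change of -0.30. The lower ones were led by *Fgf9*, a growth factor made by mesothelium (128 ± 2.68 to 58.7 ± 6.74 normalised counts, log2 fold change -1.13, adjusted p = 0.00230, edgeR), *Bnc1*, which encodes the zinc finger protein basonuclin 1 (334 ± 20.0 to 160 ± 45.2, -1.05, adjusted p = 0.0103), and *Tcf21*, a transcription factor of mesothelium-derived mesenchyme (531 ± 47.4 to 263 ± 24.8, -1.01, adjusted p = 0.00189). The count of lower calls ran from 2 without 13.5 dpc replicate 1 or 15.5 dpc replicate 3 to 6 without 15.5 dpc replicate 2, and over all genes these fits called 519, 580 and 3696 lower. It was 5 with library size only. With the length trend removed, 2 were higher, and 1 was when scaled to mesenchyme or without 15.5 dpc replicate 1, 2 or 3. *Calb2* and *Anxa8*, markers of adult mesothelium, had at most 3 counts in any sample, and *Tbx18* had 3 to 8.

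Among 8 genes described as WT1 targets in other tissues, 7 were tested. *Nphs1*, the nephrin gene, was higher at 15.5 dpc (454 ± 67.8 to 1120 ± 98.3 normalised counts, log2 fold change 1.31, adjusted p = 0.00120, edgeR), and *Podxl*, which encodes podocalyxin of the cell surface, was lower (log2 fold change -0.64, adjusted p = 0.0467). *Podxl* is also on the wider mesothelial list, where it was among the 4 lower genes, so that the same call is counted in both lists. The call of *Podxl* was lost when any 13.5 dpc sample or 15.5 dpc replicate 3 was left out, and 3 genes of the list were lower with library size only. The median was -0.09.

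The R-spondin pathway of *Rspo1* was represented by 13 further genes (ligands, receptors and targets), all tested, of which 3 were lower and 0 higher (median log2 fold change -0.33). *Axin2* and *Nkd1*, feedback targets of Wnt signalling, fell by 0.96 and 0.78 on the log2 scale (adjusted p = 0.00331 and 0.00588, edgeR), and *Rspo3*, a sister ligand, fell by 0.63 (adjusted p = 0.0499). Without 15.5 dpc replicate 2 the number of lower genes was 8, in a fit that called 3696 genes lower over all genes, against 1662 with all samples. It was 2 in several fits, such as that with a replicate block.

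Uroplakin genes other than the members were read next. Of 4, 3 were tested and all 3 were higher, with a median log2 fold change of 1.43. *Upk1a*, the close relative of *Upk1b*, had 23.7, 30 and 30.2 normalised counts at 13.5 dpc and 331, 151 and 176 at 15.5 dpc (log2 fold change 2.95, SE 0.34, adjusted p = 0.00164, edgeR). *Upk3bl*, a relative of *Upk3b*, and *Upk3a* rose by 1.43 and 1.32 on the log2 scale from fewer than 30 normalised counts (adjusted p = 0.0164 and 0.0492). *Upk2* had 3 to 9 counts in each sample and was not tested, and *Krt5* of the basal bladder lining had 1 to 7. The number of higher uroplakin genes fell to 1 without 13.5 dpc replicate 1 or 15.5 dpc replicate 3.

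Of 12 relatives of the other members, 10 were tested, with 6 lower and 1 higher and a median log2 fold change of -0.54. The largest changes past the threshold were those of *Lrrn3*, a paralogue of *Lrrn4* (245 ± 24.2 to 57.9 ± 18.9 normalised counts, log2 fold change -2.06, adjusted p = 0.00153, edgeR), the mucin gene *Muc1* (1.53, adjusted p = 0.000911) and *Nkain3* (-1.41). Only 2 relatives were lower without 13.5 dpc replicate 1, 2 or 3 or without 15.5 dpc replicate 3, and 3 with a replicate block or scaled to mesenchyme.

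**Figure D4:**
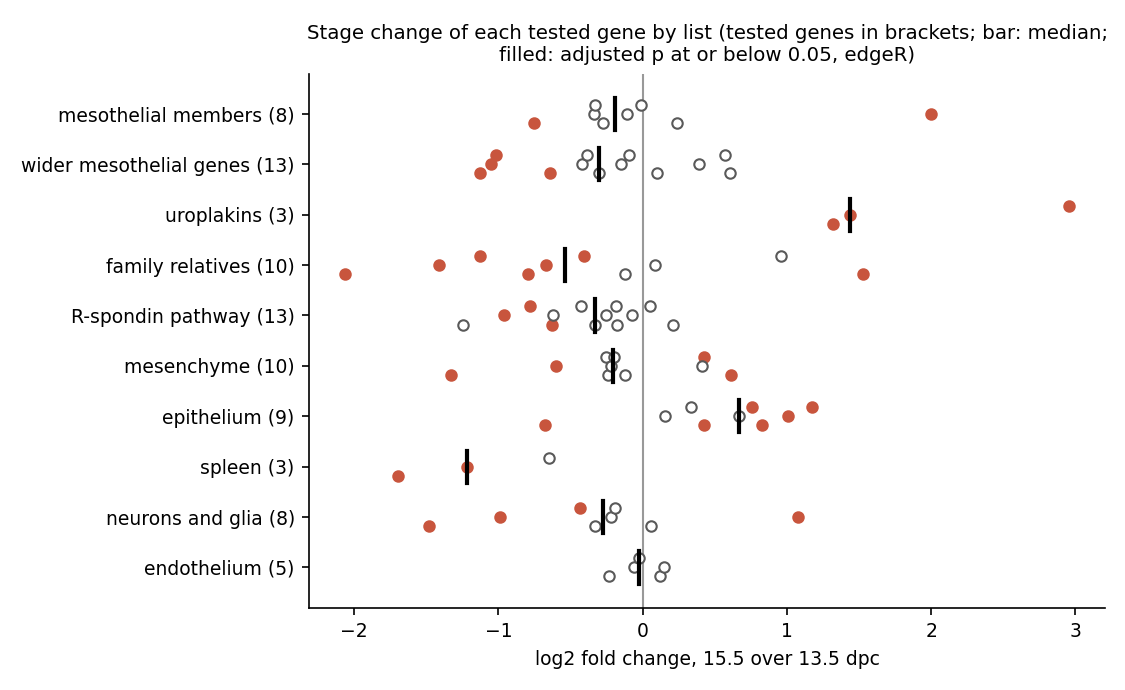
Log2 fold change (x axis, 15.5 over 13.5 dpc) of each tested gene, grouped by list (rows, number tested in brackets); points are filled where the adjusted p was at or below 0.05 and the bar marks the median. The mesothelial members centre on -0.19 with *Msln* far to the right, and the uroplakin relatives lie wholly above 0.

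Genes of other cell types that a dissected pancreas can hold were measured beside the members, and their part in the members' values was not tested. The 10 mesenchyme genes, with *Pdgfra*, *Dcn* and *Twist1* leading at log2 fold changes of -1.33, 0.61 and -0.60, had 2 higher and 2 lower calls, which ranged from 0 and 1 (without 13.5 dpc replicate 1 or 3, or 15.5 dpc replicate 3) to 3 and 3 (without 15.5 dpc replicate 1). Their summed normalised counts ranged from 122970 to 139130 at 13.5 dpc and from 91490 to 135780 at 15.5 dpc. Scaled to this list alone, the log2 fold change of *Wt1* was -0.61 and that of *Msln* was 2.19, both past the threshold, and those of *Upk3b* and *Gpm6a* turned above 0. Of 9 epithelium genes 5 were higher and 1 lower (median 0.67), and all 6 acinar genes were higher (median 3.17). The epithelium calls dropped to 1 higher and 0 lower without 13.5 dpc replicate 1, 2 or 3, to 2 and 0 without 15.5 dpc replicate 3, and to 2 and 1 scaled to mesenchyme. Neurons and glia, which express *Gpm6a*, had 1 of 8 genes higher and 3 lower (median -0.27), among them *Ret* (1.08) and *Elavl4* (-0.99). The number lower was 6 with the length trend removed, 5 with library size only and 2 to 4 when samples were left out.

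Tissues next to the pancreas that make *Wt1* or carry a mesothelium of their own were also read. Of the kidney genes, *Pax2* had 0 to 7 counts in each sample and *Pax8* at most 1. Other genes of that list were abundant, with 1 of 3 tested higher, *Nphs1* as given above, and 1 lower, *Osr1* (989 ± 55.1 to 763 ± 24.9 normalised counts, log2 fold change -0.37, adjusted p = 0.0248, edgeR). The *Osr1* call was lost when any 13.5 dpc sample or 15.5 dpc replicate 3 was left out, with the replicate block and scaled to mesenchyme. Of the gonad and adrenal genes, *Foxl2* had at most 1 count and *Nr5a1* had 2 to 11, whereas 2 of the 4 tested were higher at 15.5 dpc. These were *Gata4*, which encodes a transcription factor (1009 ± 113 to 2237 ± 67.3 normalised counts, log2 fold change 1.15, adjusted p = 0.000907, edgeR), and *Cyp11a1*, a steroid synthesis gene (22.6 ± 1.90 to 49.6 ± 1.65, 1.14, adjusted p = 0.00457). Their list summed to 1053 ± 110 and 2316 ± 71.1 normalised counts, most of which was *Gata4* alone, so that the sum does not stand for the list. Its part in the members' values was not tested. The spleen genes, summed over *Tlx1*, *Nkx2-5* and *Nkx3-2*, moved from a range of 563 to 745 to a range of 205 to 278 normalised counts, with 2 of 3 lower (*Nkx3-2* at -1.70 and *Tlx1* at -1.22), and their share in the lower *Wt1* was not tested. Of stomach and intestine, *Cdx2* had 1 to 5 counts and *Sox2* 4 to 15. Of the 3 tested, the gut hormone gene *Pyy* was higher (1677 ± 39.4 to 2878 ± 982 normalised counts, log2 fold change 0.78, adjusted p = 0.0436, edgeR) and *Barx1* (873 ± 14.8 to 532 ± 143, -0.72, adjusted p = 0.0314) and *Foxf1* (-0.98, adjusted p = 0.0278) were lower. None of these 3 was called when any 13.5 dpc sample or 15.5 dpc replicate 3 was left out. Endothelium (0 of 5 called), immune cells (2 of 5 lower) and erythroid cells (1 of 4 higher) had medians of -0.03, -0.02 and 0.34. The immune and erythroid calls were lost without 13.5 dpc replicate 1, 2 or 3, without 15.5 dpc replicate 3 and scaled to mesenchyme, and the immune calls also with the replicate block. Without 15.5 dpc replicate 2, 1 immune gene was higher and 1 lower, and 1 endothelium gene was lower.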

How the data were processed

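Poly(A) RNA of 6 wt pancreas samples was sequenced from a single end with a strand-specific kit. The authors demultiplexed the reads (bcl2fastq 1.8.4, per the submitters' processing notes), aligned them to mm10 with GSNAP and deposited the raw count of uniquely aligned reads per Ensembl gene (featureCounts 1.4.6), with the exon length of each gene. Whether counting used the strand is not given in the sources used here.

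Identifiers were matched to symbols and positions with GENCODE M21 (35449 of 37224, 99.4% or more of every sample's counts). The fit used edgeR 4.0.16, with limma 3.58.1, under R 4.3.3: filterByExpr, TMM factors (0.847 to 1.081), and the quasi-likelihood test of 15.5 over 13.5 dpc without covariates, with Benjamini-Hochberg adjustment over 15578 genes. DESeq2 1.42.0 was an alternative, beside other scalings and filters, a replicate block, removal of a lowess trend with exon length (span 0.5) and each sample left out in turn. The SE is the log2 fold change over the root of F. Python 3.11.15 and SciPy 1.17.1 were used for intervals and figures. Poisson intervals cover counting error only, and those of log2 fold changes come from the edgeR fit.

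In simulated counts, 194 of 200 genes changed 2-fold were recovered among 15408 tested, with 8 false calls. The changed genes were drawn from well-counted genes, with the same dispersion for every gene and no length trend. The rate therefore does not carry over to genes as scarce as *Msln* or to the spread of these samples. The members and lists were chosen with earlier results of these data known. Named were all members and, of each list, up to 3 genes past the threshold with the largest change and the defining genes near 0. *Wt1os*, the model within *Muc16* and *Gm14341* were added for their position, the first after its values were seen. Results for some list genes are left out of the text.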

Additional observations from a re-analysis of the deposited data

How the results depend on the processing

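Over 16 alternatives for each of 8 members, 118 of 128 comparisons kept the direction and the side of the threshold, 0 calls were lost, 6 were gained and 4 changed sign without a call. The sign changed for *Upk3b* with RLE size factors (0.0032), scaled to mesenchyme (0.1354) and without 15.5 dpc replicate 1 (0.0403, with -0.0393 to 0.0403 over the samples left out), and for *Gpm6a* scaled to mesenchyme (0.035). The number of members called, 2, became 4 with library size only, with the length trend removed and without 15.5 dpc replicate 1, and ranged from 2 to 4 when samples were left out in turn. The median log2 fold change of the members, -0.19, was -0.3938 with library size only and -0.0533 scaled to mesenchyme, scalings that moved the median of all genes to -0.22 and 0.14. It ranged from -0.2025 to -0.0657 when samples were left out, the latter without 15.5 dpc replicate 1. The log2 ratio of the summed members, -0.24, was -0.4533 with CPM on library size only and -0.3972 with RPKM without TMM factors, and -0.2693 to -0.2097 when samples were left out. The cause was not tested. Over all genes, 3467 were called, 2015 when scaled to mesenchyme and 1235 to 7620 when samples were left out (highest without 15.5 dpc replicate 2). In the fits that called 4 members, the calls over all genes also rose. They numbered 4085 with library size only, 5104 with the length trend removed and 4266 without 15.5 dpc replicate 1. With library size only, 2952 were lower and 1133 higher, against 1662 and 1805.

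The replicate numbers did not pair the samples, since the correlations of same-numbered samples were 0.21, -0.21 and 0.03. With the replicate block, 2 members were called, the median was -0.2093, *Wt1* was at -0.75 (adjusted p = 0.0139, edgeR) and *Msln* at 1.98 (adjusted p = 0.0140). The block called 2676 genes in place of 3467 and ended the call of the model within *Muc16* (adjusted p = 0.0608).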

Other observations

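The genes most like the mean standardised pattern of the 8 members over the 6 samples, among 11334 other genes with a mean of at least 100 normalised counts, were *Trip4* (Pearson r = 0.977), *Zfp933* (0.976), *Ddx10* (0.974), *Guf1* (0.974), *Wdr70* (0.973), *Prr5l* (0.967), *Zfp61* (0.967), *Pfkfb4* (0.966), *B3glct* (0.965) and *Arsk* (0.962). The mean pattern stood at 0.18, 0.51 and 0.01 in 13.5 dpc replicates 1, 2 and 3 and at -0.53, -0.22 and 0.05 in those of 15.5 dpc, in units of SD, so that the stages overlapped. The log2 fold changes of these 10 genes ranged from -0.37 (*Pfkfb4*) to -0.08 (*Trip4*) and none passed the threshold in edgeR. The 6 samples share stage and length trend.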
